A study of Saccharomyces cerevisiae with 16 samples.

Results

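The 60 genes described here encode assembly factors of the large ribosomal subunit of Saccharomyces cerevisiae, out of 6002 protein-coding genes counted. They were listed by name and not by a measured value, and all 60 were matched to the R64 annotation and passed the filter on low counts, as did 5523 genes in all. Large subunit precursors form around the rRNA made by RNA polymerase I in the nucleolus, and many helper proteins bind, fold, cleave and release them in turn. Helicases, GTPases and AAA ATPases drive the remodelling, and export factors carry the particle to the cytoplasm, where the last helpers leave. In yeast the genes of these helpers form a regulon that is known to be transcribed in step with growth, together with genes for small subunit assembly and RNA polymerase I.

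Transcript 3′ ends were counted in cells of strain BY4741 (mating type a, his3Δ1 leu2Δ0 ura3Δ0 met15Δ0), which all groups share. Single cells were enclosed in alginate and grew into microcolonies in YPD at 30 °C. The fixed groups were small colonies (replicates 2 and 4), big colonies (3 libraries) and particles that were not sorted (3). The others were unsorted particles without ethanol fixation (2) and cells grown without alginate in batch to Abs600 2 (2) or to Abs600 0.5 (2). Sorting by size followed fixation, so by title no sorted group without ethanol is among them. The sample type label of small replicate 4 conflicts with its title, as given below. Small replicates 1 and 3 were excluded by the submitters for low quality. The labels do not say how cultures were shared between groups, so the p-values measure the spread between these libraries.

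The 14 libraries held 1506960 to 7871184 tags, of which 0.377% to 3.41% of the gene tags fell on the 60 members. Levels are given as CPM, a gene's tags relative to the size of its library as scaled by TMM. A 3′ method is meant to read 1 tag per transcript end, so that a level does not grow with the length of the gene. Ends inside ORFs, described below, were counted too. A level is a share of a library's RNA, and fewer cells expressing a gene and less RNA per cell cannot be told apart. All 5 a-cell marker genes had tags in every library, and MET17, deleted in this strain as met15, had 0 tags in 13 libraries and at most 3 in the other. The 4 alpha-cell genes had 0 to 204 tags a library. The small libraries stood apart: 30 members were higher and 30 lower in replicate 4 than in replicate 2. Small replicate 4 was barcoded in an index read of its own, and its sample type label reads as unfixed although its title says fixed small colonies.

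The promoters of the members carried 2 short motifs that are known from yeast ribosome biogenesis genes, PAC (searched as GATGAG) and RRPE (searched as AAAAATTT), on either strand in the window from 250 bases before to 50 bases after the ORF start. PAC was present in 55 of 60 members (91.7%), against 20.4% of the 6001 windows of all protein-coding genes. RRPE was present in 53 (88.3%), against 14.2%, and both in 49 (81.7%), against 5.63%. The longer PAC form GCGATGAG, which contains the first, stood in 58.3% of members and 3.93% of all windows. The median match of PAC started 119 bases before the ORF and that of RRPE 144 bases before it. The windows below, read from the R64 genome, belong to PWP1 and ARX1, the members with both motifs and the smallest adjusted p between fixed and unfixed particles, to MAK5, past the threshold in all 3 comparisons with unfixed particles, and to REA1, past it in none. They run 5′ to 3′ in the direction of the gene, with both motifs in capitals.
PWP1, chrXII:543718-544017 (+ strand): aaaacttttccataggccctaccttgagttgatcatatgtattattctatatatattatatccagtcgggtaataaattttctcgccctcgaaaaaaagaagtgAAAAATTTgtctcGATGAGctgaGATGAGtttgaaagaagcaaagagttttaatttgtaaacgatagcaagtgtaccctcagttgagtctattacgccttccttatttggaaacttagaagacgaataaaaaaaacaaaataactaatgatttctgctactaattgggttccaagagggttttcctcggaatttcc
ARX1, chrIV:657418-657717 (- strand): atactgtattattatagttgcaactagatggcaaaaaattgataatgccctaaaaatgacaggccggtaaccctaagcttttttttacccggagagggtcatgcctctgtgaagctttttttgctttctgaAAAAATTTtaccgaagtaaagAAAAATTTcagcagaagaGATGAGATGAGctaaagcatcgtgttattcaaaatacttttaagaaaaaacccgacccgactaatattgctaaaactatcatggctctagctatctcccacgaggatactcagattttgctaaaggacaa
MAK5, chrII:528067-528366 (+ strand): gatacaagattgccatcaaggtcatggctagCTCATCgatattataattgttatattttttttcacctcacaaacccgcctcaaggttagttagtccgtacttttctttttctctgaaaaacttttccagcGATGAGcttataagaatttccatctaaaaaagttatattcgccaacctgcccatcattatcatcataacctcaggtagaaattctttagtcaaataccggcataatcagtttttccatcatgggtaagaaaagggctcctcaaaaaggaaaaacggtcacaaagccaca
REA1, chrXII:363689-363988 (- strand): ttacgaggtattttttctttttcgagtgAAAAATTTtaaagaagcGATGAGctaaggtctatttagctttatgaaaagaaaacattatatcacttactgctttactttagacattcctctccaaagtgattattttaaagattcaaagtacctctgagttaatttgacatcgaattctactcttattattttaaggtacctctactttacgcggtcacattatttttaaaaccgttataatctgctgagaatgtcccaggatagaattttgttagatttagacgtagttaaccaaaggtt
ARX1 had 2 matches of each motif, those of PAC overlapping, PWP1 2 of PAC and 1 of RRPE, MAK5 2 of PAC and no RRPE, and REA1 1 of each. Over the 49 members with both motifs the median log2 fold change was 3.07 for fixed over unfixed particles and -2.47 for unfixed particles over batch culture at Abs600 0.5, against 3.04 and -2.44 over all 60.

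**Figure D1:**
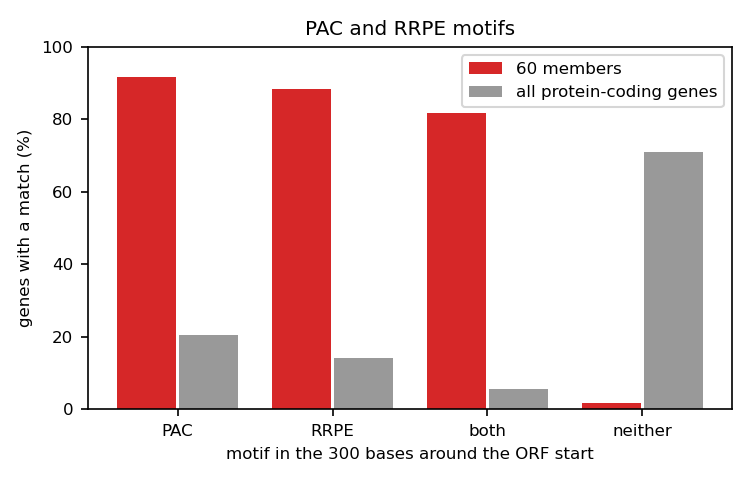
Share of genes (%, y axis) with PAC, RRPE, both or neither in the 300 bases around the ORF start (x axis), for the 60 members and for all 6001 protein-coding windows. Both motifs stood in 81.7% of the members and 5.63% of all windows.

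By their median, the members were low in unfixed particles and higher in every other group. Their median level was 298 and 248 CPM in the small libraries, 175, 292 and 219 CPM in big colonies, and 256, 262 and 213 CPM in fixed unsorted particles. It was 27.7 and 31.0 CPM in unfixed particles, 147 and 65.8 CPM in batch culture at Abs600 2, and 146 and 173 CPM at Abs600 0.5. The unfixed pair thus lay below all 12 other libraries. The median over all tested genes did not follow, at 25.8 CPM in small replicate 2 and 35.6 to 44.9 CPM in the other 13 libraries. As a share of gene tags the members took 2.63%, 3.41% and 2.49% in fixed unsorted particles, 0.377% and 0.526% in unfixed particles, 1.55% and 0.70% at Abs600 2, and 1.27% and 1.90% at Abs600 0.5.

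**Figure D2:**
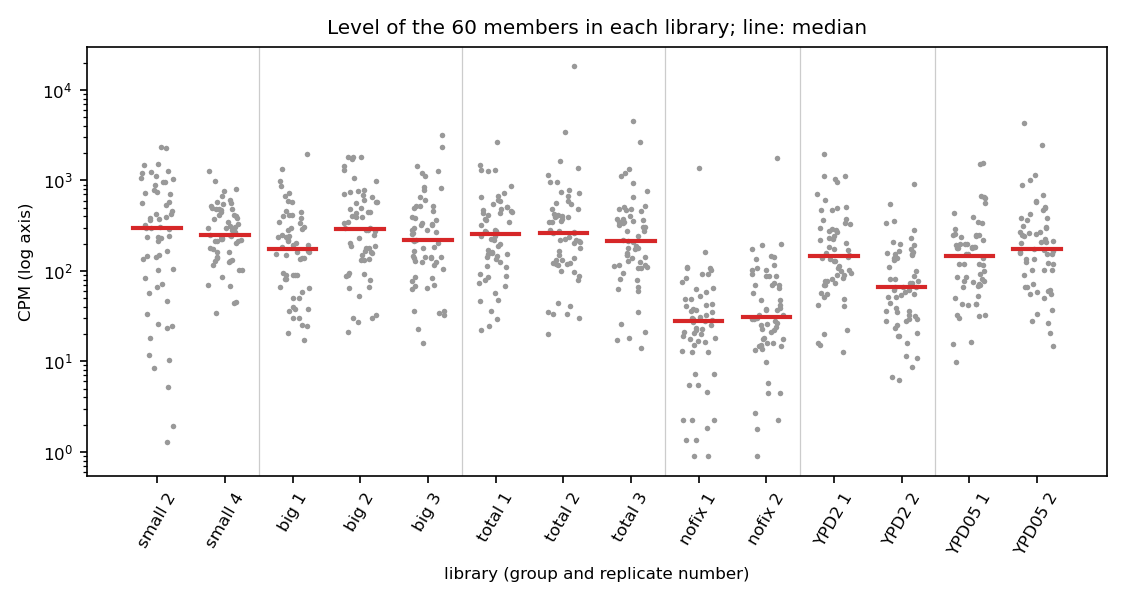
Level of each of the 60 members (grey points, CPM on a log axis) in each of the 14 libraries, named by group and replicate; red lines are medians. The 2 unfixed libraries have medians of 27.7 and 31.0 CPM, below the 65.8 to 298 CPM of the other 12.

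The unfixed particles served the study as a control for ethanol fixation, and fixed unsorted particles were set against them. Of the 60 members 38 were higher and 0 lower past the threshold (edgeR quasi-likelihood test, Benjamini-Hochberg adjusted over 5523 genes, 0.05), against 3.39% of all genes called higher. The median log2 fold change was 3.04 over the members and 0.021 over all genes, all 60 values were positive, and in 59 members the libraries of the groups did not overlap, as for 23.6% of all genes in that direction. Without the small libraries in the fit 54 members were higher (background 10.4%), and the 6 others were DBP6, HAS1, NSA2, REA1, SPB4 and TIF6, named here after their values were seen. The count was 25 without fixed replicate 2, with 91 of 5530 genes called higher. With either unfixed replicate left out, only 1 unfixed library remained. Fewer members and fewer genes then passed, at member medians of 2.82 without unfixed replicate 1 and 3.62 without unfixed replicate 2. The log2 median stayed between 2.82 and 3.62 over the alternatives run.

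The 2 unfixed libraries also served for the comparison with batch culture, the control for growth inside alginate, so values of opposite sign there are no second measurement. At Abs600 0.5, 15 members fell in unfixed particles and 0 rose, with 1.18% of all genes called lower, and 59 of 60 log2 values were negative, with a median of -2.44 against -0.0091 over all genes. The groups did not overlap in 58 members, all lower, and in 31.4% of all genes in that direction. Against Abs600 2, 4 members fell and 0 rose (0.489% of genes called lower). There the median was -1.87, against -0.026 over all genes, 57 values were negative, and the groups did not overlap in 46 members that were lower and 1 that was higher, against 28.2% and 26.2% of all genes. In the fit without the small libraries the members that fell were 42 and 31, with backgrounds of 7.05% and 5.42%. Leaving out 1 library left 1 group with 1 library. Over Abs600 0.5 fewer members and fewer genes were then called lower in each fit, with member medians of -3.07 to -2.15. Over Abs600 2 fewer members and genes were called lower without batch replicate 1 or without either unfixed replicate, and more without batch replicate 2. The member medians there were -2.44 to -1.19.

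**Figure D3:**
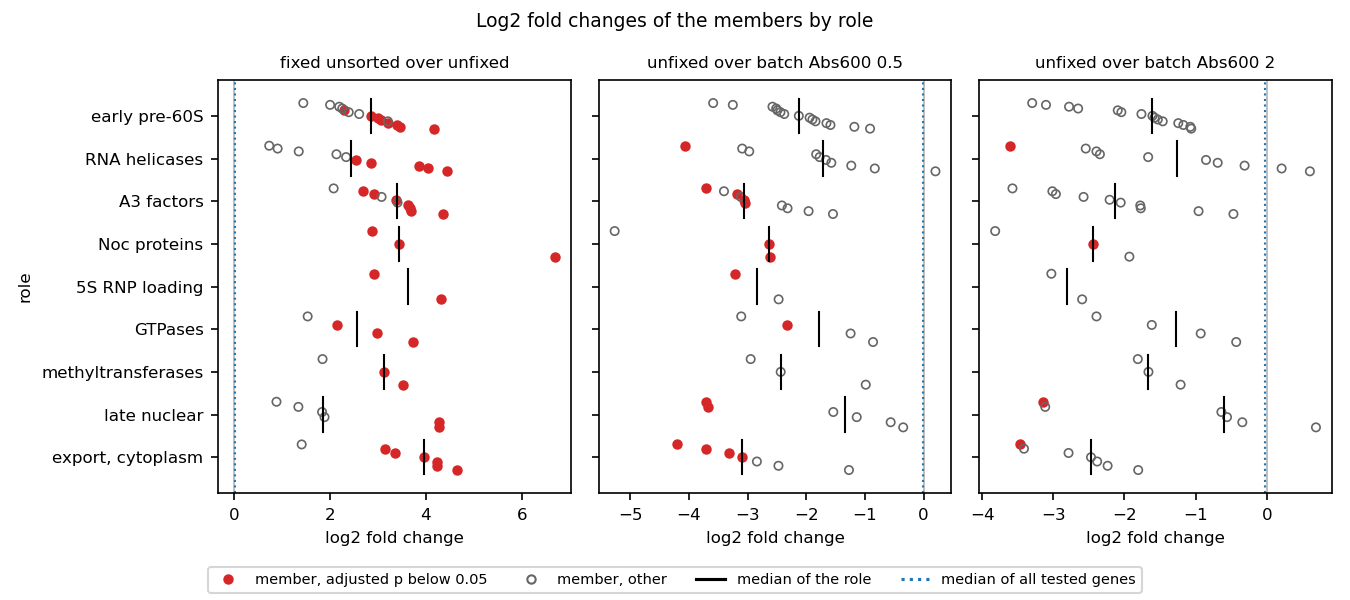
Log2 fold change (x axis) of each member by role (y axis) in 3 comparisons that share the unfixed libraries. Red points passed the threshold (38, 15 and 4 members from left to right), open points did not, black bars are role medians and the dotted line is the median of all tested genes.

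MAK5, NOC3, RIX1 and ALB1 were the 4 members past the threshold in all 3 of these comparisons. The call of NOC3 over Abs600 2 was near the threshold (adjusted p = 0.0486) and was lost in 8 of 13 alternatives, among them tags after the ORF only (adjusted p = 0.0734). MAK5, an RNA helicase gene (YBR142W, chromosome II, 528317 to 530638), had 73.2, 88.7 and 62.4 CPM in fixed unsorted particles, against 4.54 and 2.23 CPM in unfixed particles. In batch culture MAK5 had 51.04 and 32.2 CPM at Abs600 2 and 53.1 and 61.8 CPM at Abs600 0.5. Its unfixed libraries, with 10 and 5 tags, lay below every other library. It was 21.8-fold higher in fixed than in unfixed particles (log2 4.45, SE 0.67, edgeR adjusted p = 0.00161), and at log2 -4.07 (SE 0.68, adjusted p = 0.00935) and -3.604 (SE 0.67, adjusted p = 0.0217) in unfixed particles over Abs600 0.5 and 2.

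Genes for the first complexes on the pre-rRNA, 15 members, had 8 that rose in fixed over unfixed particles, with log2 values of 1.44 to 4.17 and a role median of 2.85. None of the 15 passed in unfixed particles over either batch density, with medians of -2.13 and -1.61, and 11 and 8 fell in the fit without the small libraries. RRP1, required for maturation of the large subunit rRNA (YDR087C, chromosome IV, 617470 to 618306), had 674, 776 and 479.5 CPM in fixed unsorted particles, against 91.7 and 87.1 CPM in unfixed particles. In batch culture RRP1 had 361 and 173 CPM at Abs600 2 and 347 and 582 CPM at Abs600 0.5. Its unfixed pair was close together and below all others, and it rose by log2 2.85 (SE 0.71, adjusted p = 0.0249) in fixed particles. SSF1 (YHR066W, chromosome VIII, 229335 to 230696) and SSF2 (YDR312W, chromosome IV, 1087581 to 1088942) encode paralogous early factors. Their ORFs, 1362 bases each, were identical at 92.1% of positions, and whether tags inside the ORFs were placed on the wrong copy was not tested. SSF1 had 659.7, 590.2 and 488 CPM in fixed unsorted particles, against 53.1 and 56.3 CPM in unfixed particles. In batch culture SSF1 had 231 and 140.4 CPM at Abs600 2 and 250.1 and 367 CPM at Abs600 0.5. The unfixed libraries of SSF1 were its lowest. SSF2 had 162, 276 and 218 CPM in fixed unsorted particles, against 14.99 and 39.3 CPM in unfixed particles. In batch culture SSF2 had 279.7 and 62.1 CPM at Abs600 2 and 120.3 and 175 CPM at Abs600 0.5. SSF2 was also lowest in unfixed particles, and both rose in fixed particles, SSF1 by log2 3.40 (adjusted p = 0.0073) and SSF2 by 3.00 (adjusted p = 0.0246). From tags after the ORF alone SSF1 still passed (log2 3.31, adjusted p = 0.0136) and SSF2 did not (log2 2.24, adjusted p = 0.127).

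Among 10 RNA helicases, enzymes that unwind or remodel the pre-rRNA, 5 rose in fixed over unfixed particles (role median 2.44) and 1, MAK5, fell in unfixed particles over each batch density (medians -1.72 and -1.26). DBP2 (YNL112W, chromosome XIV, 413639 to 416281), whose ORF holds an intron of 1002 bases with 1.94% of its tags, had 864, 753 and 654 CPM in fixed unsorted particles, against 64.04 and 145 CPM in unfixed particles. In batch culture DBP2 had 271 and 65.8 CPM at Abs600 2 and 192 and 471 CPM at Abs600 0.5. Its unfixed libraries were below those of fixed particles and of Abs600 0.5 but overlapped those of Abs600 2, and log2 2.86 in fixed particles passed (adjusted p = 0.0322). DRS1 (YLL008W, chromosome XII, 131729 to 133987) had 470.4, 1380.2 and 926 CPM in fixed unsorted particles, against 19.1 and 93.4 CPM in unfixed particles. In batch culture DRS1 had 473 and 99.4 CPM at Abs600 2 and 292 and 591 CPM at Abs600 0.5. The replicates of a group differed by up to several-fold, and only fixed over unfixed particles passed, at log2 4.04 (SE 0.84, adjusted p = 0.0108). With tags after the ORF only DRS1 was at 4.26 and did not pass (adjusted p = 0.056). DBP6 (YNR038W, chromosome XIV, 695595 to 697484) stood out among the helicases because its unfixed replicates disagreed, at 40.9 and 0.893 CPM, against 9.87 and 26.7 CPM at Abs600 0.5; it was named after its values were seen. Its log2 value there, 0.20 with SE 1.22 was positive, and it was negative by voom with quality weights, with a replicate block, without batch replicate 1 at Abs600 0.5 and without unfixed replicate 1.

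Factors that act in the processing of the 27S precursor, 10 members, had 7 that rose in fixed over unfixed particles (median 3.40), and 4 that fell in unfixed particles over Abs600 0.5 (median -3.05): ERB1, NOP15, PWP1 and RLP7. EBP2 (YKL172W, chromosome XI, 125759 to 127042) had 1277, 1646 and 1205 CPM in fixed unsorted particles, against 164 and 201 CPM in unfixed particles. In batch culture EBP2 had 966 and 546 CPM at Abs600 2 and 657 and 1161 CPM at Abs600 0.5. No library of EBP2 was as low as the unfixed pair. RLP7, related to the ribosomal protein Rpl7 (YNL002C, chromosome XIV, 626174 to 627142), had 1304, 971 and 1129.5 CPM in fixed unsorted particles, against 48.6 and 135 CPM in unfixed particles. In batch culture RLP7 had 1133 and 353 CPM at Abs600 2 and 637 and 893 CPM at Abs600 0.5. In both genes every unfixed library was below every library of the other 3 groups. RLP7 rose by log2 3.62 (SE 0.70, adjusted p = 0.0073) in fixed particles and fell by 3.06 (SE 0.71, adjusted p = 0.0349) in unfixed particles over Abs600 0.5. With tags after the ORF only the second value was -2.85 and did not pass (edgeR adjusted p = 0.0592). EBP2 passed only in fixed over unfixed particles (2.92, adjusted p = 0.0131, against -2.32, adjusted p = 0.0807). PWP1, a WD-repeat protein gene (YLR196W, chromosome XII, 543968 to 545698), whose promoter is printed above, had 243, 394 and 302 CPM in fixed unsorted particles, against 20.4 and 9.83 CPM in unfixed particles. In batch culture PWP1 had 108 and 73.2 CPM at Abs600 2 and 139.6 and 256 CPM at Abs600 0.5. It had the smallest adjusted p of all members in fixed over unfixed particles, 0.00118 at log2 4.37 (SE 0.61), and fell by 3.70 (SE 0.61) in unfixed particles over Abs600 0.5.

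**Figure D4:**
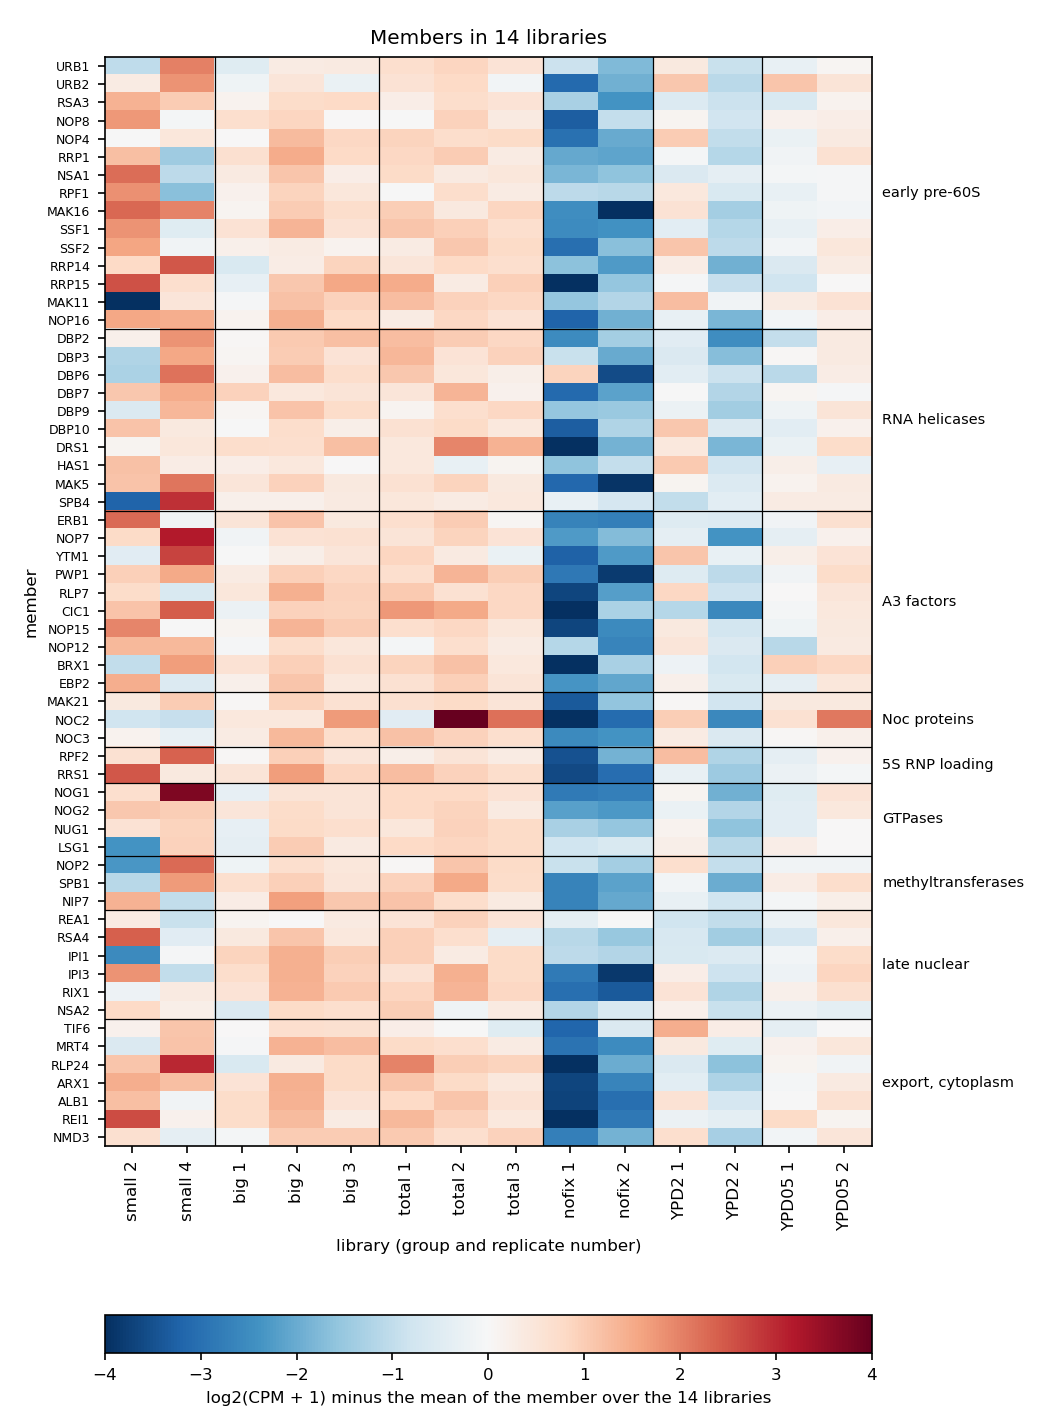
Log2(CPM + 1) of each member minus its mean over the 14 libraries (colour), with members as rows grouped by role and libraries as columns grouped by condition. The nofix columns are blue in most rows, REA1 is pale there, and small replicate 4 is higher than small replicate 2 in 30 rows and lower in 30.

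The 3 Noc proteins form complexes that accompany the precursor through the nucleus, and all 3 genes rose in fixed over unfixed particles. NOC3 (YLR002C, chromosome XII, 154343 to 156334) had 439.7, 374 and 308 CPM in fixed unsorted particles, against 32.2 and 36.6 CPM in unfixed particles. In batch culture NOC3 had 244 and 131 CPM at Abs600 2 and 199 and 227 CPM at Abs600 0.5. The unfixed replicates agreed closely, and NOC3 was 6.18-fold lower there than at Abs600 0.5 (adjusted p = 0.0184). MAK21 (YDR060W, chromosome IV, 570649 to 573726), also called NOC1, had 513, 559 and 475 CPM in fixed unsorted particles, against 30.9 and 109 CPM in unfixed particles. In batch culture MAK21 had 338 and 194 CPM at Abs600 2 and 434 and 427 CPM at Abs600 0.5. It rose by log2 2.88 in fixed particles (adjusted p = 0.0106) and fell by 2.63 in unfixed particles over Abs600 0.5 (adjusted p = 0.0367). With tags after the ORF only the second value was -2.57 and did not pass (edgeR adjusted p = 0.0690).

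NOC2 (YOR206W, chromosome XV, 727512 to 729644) gave the widest differences of the list in the 3 comparisons with unfixed particles, and most of its tags came from 1 end inside the ORF, 64 bases from its start, which held 81.6% of its tags over the 14 libraries. Within 10 bases of that end it had 421, 17795 and 4322 CPM in fixed unsorted particles, against 28.2 and 30.8 CPM in unfixed particles. That end had 1835 and 63.8 CPM at Abs600 2 and 1257 and 4037 CPM at Abs600 0.5. The range within fixed particles was wide. After the ORF NOC2 had 287, 351 and 210.0 CPM in fixed unsorted particles, against 5.45 and 84.9 CPM in unfixed particles. Batch culture had 112 and 94.3 CPM at Abs600 2 and 239.8 and 253 CPM at Abs600 0.5. Ends after the ORF varied less among the 3 fixed libraries than the early end did. With all tags the log2 fold change of fixed over unfixed particles was 6.69 (SE 1.44, adjusted p = 0.0118), and with tags after the ORF only it was 2.59 and did not pass (adjusted p = 0.0703).

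**Figure D5:**
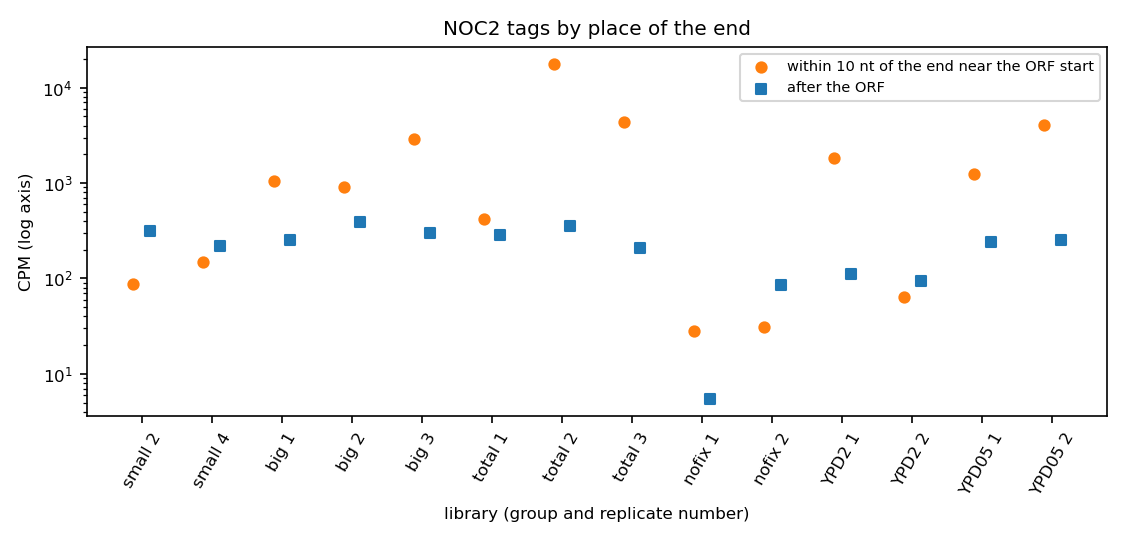
CPM (log axis) of NOC2 tags within 10 bases of the end near the ORF start (circles) and after the ORF (squares) in each library. In fixed unsorted particles the circles run from 421 to 17795 CPM and the squares from 210.0 to 351 CPM.

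The most used end lay inside the ORF in 9 of 60 members (15%), against 9.56% of all tested genes. These were NOC2, DRS1, DBP3, RRP14, NUG1, DBP6, SSF2, NOP12 and NOG2. The bases after the end are shown for the 3 members with the earliest ends and for NOG2, as 40 bases of R64 sequence with the 20 bases after the end in capitals.
NOC2, chrXV:727556-727595 (+ strand): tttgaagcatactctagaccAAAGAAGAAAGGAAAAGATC
DRS1, chrXII:132238-132277 (+ strand): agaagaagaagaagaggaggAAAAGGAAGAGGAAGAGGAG
DBP3, chrVII:361734-361773 (- strand): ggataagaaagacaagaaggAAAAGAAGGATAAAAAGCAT
NOG2, chrXIV:721141-721180 (- strand): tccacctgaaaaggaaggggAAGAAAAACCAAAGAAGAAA
The capitals held 13, 11, 13 and 15 A of 20, with a median of 13 over the 9 members and 11 over all tested genes with such an end. In the other 51 members the end lay a median of 99 bases after the ORF, followed by a median of 7 A in 20, with a range of 2 to 18. The highest value, 18 A, followed the main end of REA1, 69 bases after its ORF, which held 69.3% of its tags. Counts of tags after the ORF only still include that end. Whether ends before such A-rich stretches are transcript ends or oligo(dT) priming inside the transcript was not tested. With tags after the ORF only, 28 members rose in fixed over unfixed particles (background 2.91%), and 13 and 5 fell in unfixed particles over Abs600 0.5 (1.03%) and Abs600 2 (0.619%).

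RPF2 and RRS1, whose products load the 5S RNA particle onto the precursor, both rose in fixed over unfixed particles. RRS1 (YOR294W, chromosome XV, 868340 to 868951) had 504, 406 and 349.9 CPM in fixed unsorted particles, against 16.8 and 25.02 CPM in unfixed particles. In batch culture RRS1 had 176 and 77.4 CPM at Abs600 2 and 185 and 204 CPM at Abs600 0.5. Unfixed particles again gave the lowest values. RPF2 (YKR081C, chromosome XI, 591506 to 592540) had 109, 132 and 115 CPM in fixed unsorted particles, against 7.27 and 24.1 CPM in unfixed particles. In batch culture RPF2 had 218 and 39.3 CPM at Abs600 2 and 71.5 and 103 CPM at Abs600 0.5. Neither overlapped between fixed and unfixed particles, and RRS1, at log2 4.33 (SE 0.73, adjusted p = 0.0034), also fell by 3.21 (SE 0.71, adjusted p = 0.0285) in unfixed particles over Abs600 0.5. RPF2 was at 2.91 (adjusted p = 0.0421) in the first, which it did not pass with tags after the ORF only (adjusted p = 0.0539), and did not pass in the second (-2.47, adjusted p = 0.143).

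Of 4 GTPase genes, 3 rose in fixed over unfixed particles and 1, NOG2, fell in unfixed particles over Abs600 0.5. NOG2 (YNR053C, chromosome XIV, 721120 to 723112), whose product occupies the precursor before export, had 199, 216 and 149 CPM in fixed unsorted particles, against 24.98 and 22.8 CPM in unfixed particles. In batch culture NOG2 had 95.9 and 50.8 CPM at Abs600 2 and 86.03 and 155 CPM at Abs600 0.5. Both unfixed replicates were lowest. Its intron of 532 bases, which hosts the small nucleolar RNA gene SNR191, held 1.01% of its tags. NUG1 (YER006W, chromosome V, 162723 to 164285) had 277, 389 and 346 CPM in fixed unsorted particles, against 82.7 and 69.7 CPM in unfixed particles. In batch culture NUG1 had 224 and 65.8 CPM at Abs600 2 and 153 and 209 CPM at Abs600 0.5. The log2 fold change of fixed over unfixed particles was 2.97 (adjusted p = 0.00513) for NOG2 and 2.15 (adjusted p = 0.0404) for NUG1, which did not pass with tags after the ORF only (adjusted p = 0.282). In the group of rRNA methyltransferases and their partner Nip7, 2 of 3 rose. NIP7 (YPL211W, chromosome XVI, 153495 to 154040) had 1299, 963 and 764 CPM in fixed unsorted particles, against 91.3 and 141 CPM in unfixed particles. In batch culture NIP7 had 476 and 341 CPM at Abs600 2 and 564 and 695 CPM at Abs600 0.5. The lowest values of NIP7 were the unfixed ones. SPB1, encoding a 2′-O-methyltransferase of the large rRNA (YCL054W, chromosome III, 31449 to 33974), had 275, 422 and 246 CPM in fixed unsorted particles, against 22.3 and 32.2 CPM in unfixed particles. In batch culture SPB1 had 137 and 36.2 CPM at Abs600 2 and 179.6 and 241 CPM at Abs600 0.5. Both lay lowest in the unfixed libraries, at log2 3.12 and 3.53 for fixed over unfixed particles (adjusted p = 0.0136 and 0.0171).

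Of the late nuclear factors, 6 members, 2 rose in fixed over unfixed particles, with a role median of 1.86. In the fit without the small libraries 4 rose. IPI3 and RIX1 encode subunits of the Rix1 complex, which works with the AAA ATPase Rea1 in stripping factors from the precursor. RIX1 (YHR197W, chromosome VIII, 493896 to 496187) had 351, 488 and 339 CPM in fixed unsorted particles, against 22.7 and 17.9 CPM in unfixed particles. In batch culture RIX1 had 277 and 82.2 CPM at Abs600 2 and 219.5 and 301 CPM at Abs600 0.5. The unfixed values of RIX1 were alike and lowest. IPI3 (YNL182C, chromosome XIV, 295960 to 297627) had 413, 733 and 462 CPM in fixed unsorted particles, against 37.7 and 17.9 CPM in unfixed particles. In batch culture IPI3 had 329 and 153 CPM at Abs600 2 and 236 and 494 CPM at Abs600 0.5. Neither overlapped between fixed and unfixed particles, and both were higher in fixed ones, 19.3-fold for RIX1 (log2 4.27, SE 0.64, adjusted p = 0.00161) and 19.2-fold for IPI3 (log2 4.27, SE 0.83, adjusted p = 0.0073). REA1 itself (YLR106C, chromosome XII, 349006 to 363738), with the longest ORF of the list at 14733 bases, had 2671, 3422 and 2659.5 CPM in fixed unsorted particles, against 1373 and 1791 CPM in unfixed particles. In batch culture REA1 had 1046 and 915 CPM at Abs600 2 and 1549 and 2480.1 CPM at Abs600 0.5. Its unfixed libraries overlapped those at Abs600 0.5 and were above those at Abs600 2. Its log2 fold changes, 0.88 (SE 0.48), -0.35 (SE 0.52) and 0.69 (SE 0.52), did not pass (adjusted p = 0.35, 0.826 and 0.627). The IPI1 gene, of the third subunit, had 67.7, 44.3 and 60.3 CPM in fixed and 16.4 and 14.7 CPM in unfixed particles. It did not pass in the fit of 14 libraries (edgeR adjusted p = 0.160) but passed without the small libraries (edgeR adjusted p = 0.00718). IPI1 too was named after its values were seen.

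Placeholder, export and cytoplasmic factors, 7 members, included 6 that rose in fixed over unfixed particles (role median 3.97), and 4 that fell in unfixed particles over Abs600 0.5: REI1, ALB1, ARX1 and MRT4. ARX1 encodes an export factor, ALB1 its partner, and REI1 a cytoplasmic protein that takes part in their release. ARX1 (YDR101C, chromosome IV, 655686 to 657467) had 228, 181 and 141 CPM in fixed unsorted particles, against 7.27 and 16.1 CPM in unfixed particles. In batch culture ARX1 had 78.3 and 44.1 CPM at Abs600 2 and 99.7 and 134 CPM at Abs600 0.5. The unfixed pair was lowest. ALB1 (YJL122W, chromosome X, 189716 to 190243) had 434, 546 and 371 CPM in fixed unsorted particles, against 18.2 and 29.9 CPM in unfixed particles. In batch culture ALB1 had 376 and 158 CPM at Abs600 2 and 250.1 and 383 CPM at Abs600 0.5. The unfixed pair of ALB1 was lowest as well. REI1 (YBR267W, chromosome II, 739841 to 741022) had 283, 221 and 156 CPM in fixed unsorted particles, against 2.27 and 15.2 CPM in unfixed particles. In batch culture REI1 had 99.3 and 87.6 CPM at Abs600 2 and 196 and 126 CPM at Abs600 0.5. Its unfixed values rested on 5 and 34 tags. In all 3 genes the unfixed pair lay below every library of the other groups named. The log2 fold changes for fixed over unfixed particles were 3.97 (SE 0.61), 4.22 (SE 0.66) and 4.65 (SE 0.89), with edgeR adjusted p = 0.00171, 0.00194 and 0.00718. NMD3, the export adaptor gene (YHR170W, chromosome VIII, 443828 to 445384), had 1489, 1140.3 and 1355 CPM in fixed unsorted particles, against 107 and 192 CPM in unfixed particles. In batch culture NMD3 had 1130.0 and 282 CPM at Abs600 2 and 665 and 999 CPM at Abs600 0.5. Here too the unfixed pair was lowest. RLP24, encoding a placeholder for Rpl24 (YLR009W, chromosome XII, 166537 to 167136), had 245, 123 and 116 CPM in fixed unsorted particles, against 2.27 and 14.7 CPM in unfixed particles. In batch culture RLP24 had 40.7 and 19.2 CPM at Abs600 2 and 66.3 and 56.2 CPM at Abs600 0.5. Both rose in fixed over unfixed particles, by log2 3.15 (adjusted p = 0.0112) and 4.24 (adjusted p = 0.0108), and RLP24 did not pass with tags after the ORF only (adjusted p = 0.0667).

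Other genes of the pathway, from lists of names, were counted in the same fit. Of 67 small subunit assembly genes 39 rose in fixed over unfixed particles, and 10 and 2 fell in unfixed particles over Abs600 0.5 and 2, with medians of 2.67, -2.15 and -1.62. ENP1 of that list averaged 145 ± 84.3 CPM (SD, n = 3) in fixed and 2.47 ± 1.56 CPM (SD, n = 2) in unfixed particles. Of 8 proteins of small nucleolar ribonucleoproteins 5, 1 and 0 passed in the same 3 comparisons, and of 7 tested RNA polymerase I subunits 4, 3 and 0. RPA49, a subunit of that polymerase, averaged 68.1 ± 30.5 CPM (SD, n = 3) in fixed and 0.905 ± 0.648 CPM (SD, n = 2) in unfixed particles. Such a level rests on few tags: DBP7, at 0.908 CPM in unfixed replicate 1, had 2 tags there. ENP1 and RPA49 were named because their changes were the largest among the genes of their lists past the threshold. None of 82 genes for proteins of the large subunit itself passed in any of the 3, with medians of 0.57, -1.20 and -0.36, and none of 15 regulator genes, with medians of 0.18, -0.080 and -0.29. In the fit without the small libraries 4 large subunit protein genes rose and 1 fell in fixed over unfixed particles, and 22 and 5 fell and 1 and 1 rose in the other 2 comparisons. Of the regulator genes 1 rose there in fixed over unfixed particles. Over all genes that fit called 10.4% higher in fixed over unfixed particles, and 7.05% and 5.42% lower in the other 2.

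Antisense tags were counted inside ORFs only where they lay in the counting window of no protein-coding gene on their own strand. On the members such tags made up 0.354%, 0.154% and 0.281% of sense and antisense tags in fixed unsorted particles, and 5.47% and 3.599% in unfixed particles. The share was 0.251% and 0.937% at Abs600 2, 0.430% and 0.291% at Abs600 0.5, 0.363%, 0.119% and 0.190% in big colonies, and 0.754% and 2.41% in the small libraries. Behind those shares stood 420, 75 and 199 antisense tags in fixed unsorted particles, against 445 and 402 in unfixed ones, where sense tags were fewest. Over the ORFs of all genes the antisense share was 3.54% and 2.92% in unfixed libraries and 0.622% to 1.92% in the other 12, and its part in the results was not tested.

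No member passed when fixed unsorted particles were compared with batch culture at Abs600 0.5, nor did any gene (0% called by edgeR; 119 genes and 0 members at an unadjusted p under 0.05; 1 gene and 0 members by DESeq2). Of the members, 58 log2 values were positive, with a median of 0.61 against 0.022 over all genes, and 38 members did not overlap, all higher in fixed particles, as 12.9% of all genes did in that direction. RLP24 was at log2 1.40 (SE 0.75) and DBP2 at 1.19 (SE 0.68), and MAK5 at 0.38 (SE 0.53).

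No member passed between sorted big colonies and unsorted fixed particles (0% of genes called; 50 genes and 0 members at an unadjusted p under 0.05 by edgeR, 0 genes by DESeq2). The median log2 value was -0.080, and 5 members were lower and 0 higher without overlap, against 3.40% and 4.11% of all genes. The median was 0.10 without big replicate 1 and -0.27 without big replicate 2, and 0.017 by voom with quality weights. NOC2, at 1333, 1317 and 3199 CPM in big colonies and 731, 18193 and 4562 CPM in unsorted particles, had the lowest log2 value, -2.01 (SE 0.97). With tags after the ORF only its value was 0.13, so its direction turned.

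Small colonies compared with big ones gave 0 members past the threshold, with 1.27% of all genes called in either direction and a median of 0.44 against 0.17 over all genes. At an unadjusted p under 0.05 there were 7 members and 1113 of 5523 genes. DESeq2 called 3 members and 11.1% of genes (390 higher, 221 lower). With scaling by relative log expression the median of all genes was 0.35 and that of the members 0.61. The small libraries did not agree on the members. NOG1, a GTPase gene, had 71.7 and 603 CPM in small replicates 2 and 4, against 35.7, 64.8 and 64.7 CPM in big colonies. SPB4, a helicase gene, had 1.94 and 206 CPM in the small replicates, against 30.2, 30.2 and 33.9 CPM in big colonies, so that 1 small library was below and the other above all big ones. With small replicate 4 alone 15 members passed (9 higher, 6 lower), with 29.3% of all genes called (803 higher, 862 lower). With small replicate 2 alone 14 members passed (6 higher, 8 lower), with 35.5% of all genes called (602 higher, 1384 lower). In both, the share of members called was below that of all genes. The 4 members called in both, NOP2, NSA1, RPF1 and SPB4, had opposite signs in them, as did 32 of all 60; these genes and NOG1 were named after their values were seen.

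Between batch culture at Abs600 2 and at Abs600 0.5 no member passed the threshold (0% of genes called; 190 genes and 1 member at an unadjusted p under 0.05 by edgeR, 11 higher and 5 lower genes and 0 members by DESeq2). The median log2 value was -0.50, 22 members were lower and 1 higher at Abs600 2 without overlap, against 21.5% and 23.99% of all genes, and the densities were not evenly replicated: at Abs600 2 replicate 2 was below replicate 1 in 57 of 60 members, at a median ratio of 0.453. Without Abs600 2 replicate 1 the median was -1.14, and without its replicate 2 it was -0.070. At Abs600 0.5, replicate 2 was above replicate 1 in 50 members, at a median ratio of 1.39.

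The members lay on 15 chromosomes, and no member had another as its neighbour. In 10 cases a member sat next to a gene of the small subunit, snoRNP or RNA polymerase I lists, with divergent starts for NSA2 with LCP5, 301 bases apart, and for SSF1 with RRP3, 297 bases apart. The convergent pairs RRP15 with NOC4 and RPF1 with GAR1 point their ends at each other, and tags were assigned by strand.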

How the data were processed

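Polyadenylated 3′ ends were measured by 3′T-fill. The deposited table holds raw counts of tags at stranded R64 positions in 16 libraries; CASAVA 1.8.2 and GSNAP are the tools in the submitters' processing notes, and their settings are not given in the sources used here. A tag was assigned to a gene if it lay in the ORF or up to 400 bases after it, before the next gene of that strand, on the strand opposite to the one in the table. Of 6002 genes, 5523 passed filterByExpr in 14 libraries of 6 groups (8 residual degrees of freedom) and were tested with edgeR 4.0.16 (TMM, quasi-likelihood, robust) in R 4.3.3, Benjamini-Hochberg threshold 0.05; the test was checked on simulated data. DESeq2 1.42.0 and limma 3.58.1 served as alternatives, and Python 3.11.15 for counting. Promoters and ORF sequence were read from the RefSeq R64 genome.

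The members, lists and tests were chosen with earlier results of these data known. Named are the 2 members with the highest mean CPM per role, up to 8 per comparison and direction with the largest changes past the threshold and no overlap, SSF1 and SSF2, members with an intron and the member with the longest ORF. Intervals and p-values do not cover repeat counting of amplified molecules, as no molecular identifiers are described.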

Additional observations from a re-analysis of the deposited data

How the results depend on the processing

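Counts of members past the threshold moved with the fit and with single libraries. For unfixed particles over Abs600 0.5, unfixed over Abs600 2 and fixed over unfixed particles, with 15, 4 and 38 members, the counts were 42, 31 and 54 without the small libraries, 34, 24 and 47 with DESeq2, 44, 18 and 53 by voom with quality weights, and 40, 15 and 54 from the libraries of the 2 groups alone. Over all genes, in the same directions, the counts were 65, 27 and 187 in the fit of 14 libraries, 384, 295 and 569 without the small libraries, 207, 153 and 345 with DESeq2, 496, 168 and 474 with quality weights, and 476, 111 and 402 from the 2 groups alone. Leaving out 1 library gave 0 to 4, 0 to 6 and 4 to 29, with a lone library taken to vary like the other groups. In those fits fewer of all genes were called in the same direction too, except over Abs600 2 without its replicate 2. Small over big gave 3 members with DESeq2, 4 with quality weights and 1 with tags after the ORF only (chosen after seeing the data). Over all genes the same settings called 390 higher and 221 lower, 447 and 300, and 22 and 36. When 1 big library was left out no member passed, and neither did any other gene. With 1 small library alone more members and more genes passed, as given above. The cause of these shifts was not tested.

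Deviations of same-numbered libraries correlated at -0.168 to 0.186. Where a group has 2 libraries, same-numbered and crossed values differ only in sign. Whether replicate numbers pair the libraries was thus not settled. With a replicate block the 3 counts were 44, 4 and 50, and over all genes in the same directions 457, 45 and 293. For Abs600 2 over 0.5 the replicate block gave 0 members, with 53 genes higher and 34 lower. A crossed replicate block, chosen after seeing the data, gave 6 members, all lower, with 157 genes higher and 155 lower. Small and big colonies share only number 2. Of 558 alternative values for 41 named results 440 kept their call, 118 lost it and 0 changed sign; 38 of 41 lost it without unfixed replicate 1. Outside those 41 results other values turned in direction, among them NOC2 in big colonies over unsorted particles and DBP6 in unfixed particles over Abs600 0.5. For big colonies over unsorted particles, 24 of 60 member values were positive in the fit of 14 libraries. That number ran from 4 without big replicate 2 to 37 without big replicate 1. With small replicates 1 and 3 added, 0 members passed for small over big colonies, and 0 of all 5509 genes tested.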

Other observations

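Small replicates 1 and 3, which the submitters excluded for low quality, held 143 and 12117 tags on the members, or 1.39% and 1.61% of their gene tags. In replicate 1 no tag fell on 22 members and in replicate 3 on 8, at totals of 11821 and 839550 tags.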
